A study of Caenorhabditis elegans with 2 samples.

Results

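The insulin-like peptide genes of the nematode Caenorhabditis elegans are described here at the regions listed for ZAG-1, the worm's ZEB-type DNA-binding protein, which has zinc fingers and a homeodomain and is known from the nervous system. Members were taken by name, as the protein-coding genes of the WBcel235 annotation called ins- with a number, together with daf-28, which gave 39 of 19973 nuclear protein-coding genes. The rule uses names alone, though the family was picked for description with earlier results of these data known. For each member, a listed region was counted when its summit, the point of strongest signal, lay within 5000 bp of the annotated gene start.

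The measurements are ChIP-seq peak lists, in which DNA bound to the tagged factor is pulled down and sequenced, from whole worms at the L4 larval stage. All worms were of strain OP83, which carries unc-119(ed3) on chromosome III and the insertion wgIs83 expressing eGFP-tagged ZAG-1, and were of mixed sex, labelled as pooled. There was 1 group with 2 biological replicates, no untagged or untreated group was analysed here, and the labels do not give the cells or the promoter that express the tagged protein. The 4 lists in the ce11 build held 246 peaks in the reproducible set (irreproducible discovery rate, IDR), 4010 regions for both replicates pooled, 11750 for replicate 1 and 30000 for replicate 2. The lists hold no read counts, so the depth of each library is unknown. Each region has a signal value in the unit of the authors' caller and a score, the −log10 of a q-value. The signal value ranks regions within a list and is not comparable between the replicate lists and the pooled list. The IDR peaks described here carry the signal value and score of the same regions in the pooled list.

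Insulin-like peptides are small secreted hormones, most of them made by neurons and the intestine, that act on the insulin receptor homologue DAF-2. Some, such as DAF-28, INS-4, INS-6 and INS-7, activate the receptor and favour growth, while INS-1 and INS-18 oppose it and favour entry into the dauer larva, a stress-resistant resting stage. The receptor signals through a phosphoinositide kinase cascade that keeps the FOXO factor DAF-16 out of the nucleus. The genes are small and many lie in tandem. Here the annotated genes were between 335 and 2788 bp long (median 655), with longest coding sequences of 201 to 654 bp and 2 or 3 coding exons. They lay on all 6 nuclear chromosomes, with 15 on II, 10 on I, 5 on III, 4 on IV, 3 on V and 2 on X, and 22 of the 39 had the start of another member within 5000 bp.

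The regions that carry the results lay at ins-39, ins-13 and ins-17, and their sequences are given on the plus strand of WBcel235 (RefSeq copy of the assembly). Capitals mark words of 6 bases searched on both strands, which were the ZEB-type word CAGGTA with its variant CAGGTG, the repeat word GAGAGA, the repeat word CACACA, and the words CGTCTC with, as the last, ACGCAG. The ins-39 window is shown because it is the only IDR peak of the family with no other annotated start nearby.

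ins-39 upstream window, chrX:1344919-1345218: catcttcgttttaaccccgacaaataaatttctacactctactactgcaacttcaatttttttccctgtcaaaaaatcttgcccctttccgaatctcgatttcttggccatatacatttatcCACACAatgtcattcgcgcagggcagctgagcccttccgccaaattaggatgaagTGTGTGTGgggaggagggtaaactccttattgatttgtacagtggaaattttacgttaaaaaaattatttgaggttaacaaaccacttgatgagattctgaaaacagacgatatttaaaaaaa

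The windows beside ins-13, each 201 bases centred on a summit of the pooled list, are shown because each holds all or part of a gene for the SL2 spliced leader, a short RNA that is joined to messages of downstream genes in operons.

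ins-13 stronger window, chrII:5543550-5543750: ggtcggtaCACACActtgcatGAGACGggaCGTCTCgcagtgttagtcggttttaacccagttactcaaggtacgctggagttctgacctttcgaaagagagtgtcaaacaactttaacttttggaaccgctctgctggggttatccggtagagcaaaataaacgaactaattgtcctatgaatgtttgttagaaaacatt

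ins-13 weaker window, chrII:5544227-5544427: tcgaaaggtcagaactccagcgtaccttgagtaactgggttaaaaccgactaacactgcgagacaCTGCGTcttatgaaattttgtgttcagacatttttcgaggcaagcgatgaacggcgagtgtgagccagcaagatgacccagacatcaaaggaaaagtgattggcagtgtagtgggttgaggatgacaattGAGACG

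The SL2 genes in these windows, sls-2.2 (chrII:5543598-5543707, plus strand) and sls-2.3 (chrII:5544164-5544273, minus strand), are shown on their own strands because they are near-identical copies. They are both 110 bp long and are the same at 107 positions (97.3%). Here capitals mark the 3 positions at which they differ.

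sls-2.2: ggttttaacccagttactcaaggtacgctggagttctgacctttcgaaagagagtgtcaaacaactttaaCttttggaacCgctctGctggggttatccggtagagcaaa

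sls-2.3: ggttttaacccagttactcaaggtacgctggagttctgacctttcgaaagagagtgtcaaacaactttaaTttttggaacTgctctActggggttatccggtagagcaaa

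At ins-17 the pooled list had a window at the neighbouring ribosomal protein gene rps-1 and another at the start of ins-17 itself. Both are given for comparison.

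ins-17 window at rps-1, chrIII:4475598-4475798: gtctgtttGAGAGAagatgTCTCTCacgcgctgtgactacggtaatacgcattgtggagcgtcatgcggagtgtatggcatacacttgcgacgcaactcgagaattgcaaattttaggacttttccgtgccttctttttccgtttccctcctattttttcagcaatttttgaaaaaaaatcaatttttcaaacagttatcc

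ins-17 window at its own start, chrIII:4477487-4477687: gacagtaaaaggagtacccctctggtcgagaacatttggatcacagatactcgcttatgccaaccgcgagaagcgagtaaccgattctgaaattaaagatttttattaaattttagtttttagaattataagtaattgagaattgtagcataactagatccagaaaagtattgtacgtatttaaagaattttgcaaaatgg

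Of the 39 members, ins-13 and ins-39 had an IDR peak near the start, and the other 37 had none. These 2 members are 5.13% of the family, against 2.71% of all protein-coding genes by the same rule. In the pooled list 10 members (25.6%) had a summit, against 30.1% of all genes. Replicate 1 had a summit near 28 members (71.8%, against 66.9%) and replicate 2 near all 39 (against 92.8%). A summit of both replicates lay near 28 members (71.8%, against 63.7%). With so many of all genes reached by the replicate lists, the presence of a replicate region near a member says little, and the ranks below carry more. The comparisons with all genes are descriptions and were not tested, since the family was picked with earlier results known and neighbouring members share regions. There was also only 1 group of 2 replicates.

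**Figure D1:**
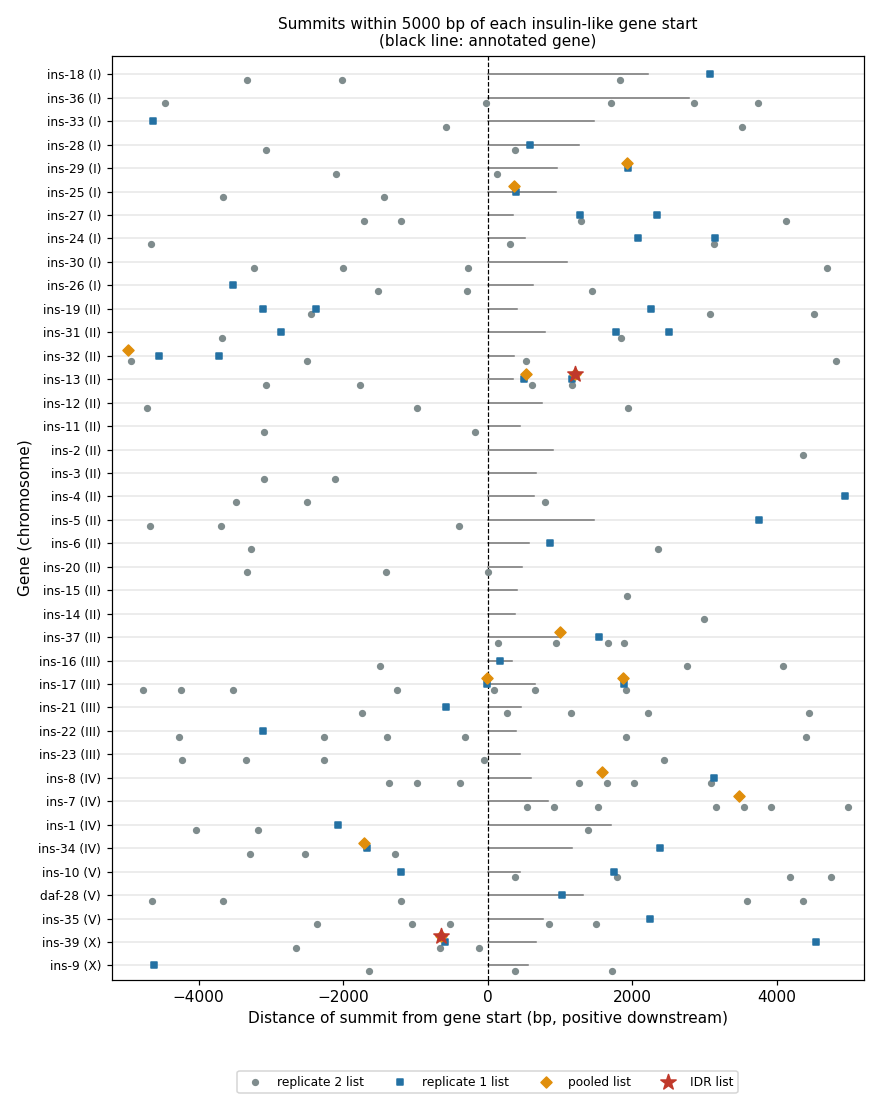
Position of every listed summit within 5000 bp of each insulin-like gene start; the x axis is distance from the start in bp, each row is a gene with its chromosome, and symbols mark the list. The 2 IDR stars are at ins-13, 1214 bp downstream of the start, and at ins-39, 648 bp upstream, while grey replicate 2 points are found in every row.

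The ins-39 gene (WBGene00017668) lies on the minus strand of X, from 1343758 to 1344421. Its IDR peak, X:1344899-1345238, had a signal value of 101 and ranked 32 of 246. The same region, with the same signal value, ranked 32 of 4010 in the pooled list, which is not a separate measurement. In replicate 1 the region had signal 67.8 and rank 27 of 11750, with its summit 593 bp upstream of the gene start. In replicate 2 it had signal 36.0 and rank 40 of 30000, with its summit 665 bp upstream. The replicate regions overlapped by 244 bp and their summits were 72 bp apart. Both replicates thus placed a strong region at nearly the same point upstream of ins-39.

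The peak stood in open intergenic sequence. The next protein-coding start, that of the transthyretin-related gene ttr-37, was 7894 bp from the summit, and the next short RNA start, F56C3.11, was 24509 bp away. On the side of the peak, the nearest annotated gene body began 6131 bp from ins-39 and was a pseudogene. All 32-base words of the window 100 bp to each side of the summit occurred once in the genome, and its GC content was 40.8%. The window held CACACA 3 times on either strand, with overlapping matches counted, and 0 of the other 5 words. CACACA was in 34.1% of the 246 IDR windows of that size and in 14.6% of the 4010 pooled windows.

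The ins-13 gene (WBGene00002096) lies on the minus strand of II, from 5544512 to 5544864, and overlaps the end of acdh-2, an acyl-CoA dehydrogenase gene. Its IDR peak, II:5543480-5543819, was the stronger of the 2 in the family, with signal 179 and rank 11 of 246. In replicate 1 the region had signal 122 and rank 7, and in replicate 2 it had signal 51.4 and rank 22. The replicate summits were 1 bp apart. The ranks in both replicates were better than those of ins-39.

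This peak did not lie at the start of ins-13. Its summit was 1214 bp downstream of that start, beyond the 3' end of the gene, and inside sls-2.2, 52 bp downstream of the start of that SL2 gene. An overlapping short RNA, C17C3.23, started 48 bp from the summit. The ins-13 start was nonetheless the nearest protein-coding start, ahead of C17C3.24 at 1865 bp and hlh-27, a bHLH factor gene, at 3437 bp. In the same window 67.1% of the 32-base words occurred once in the genome, and the most repeated occurred 4 times. How the authors placed reads from repeated sequence is not given in the sources used here, so the share of signal that belongs to this copy is uncertain.

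A weaker region of the pooled list lay between the stronger one and ins-13, at II:5544157-5544496. It had signal 36.7 and rank 468 of 4010, and a score of 0.803. Its summit was 537 bp downstream of the ins-13 start and 54 bp upstream of the start of sls-2.3. In replicate 1 it had signal 25.4 and rank 462, whereas the overlapping region of replicate 2 had signal 7.93 and rank 15117. The replicates thus differed in rank at this second region far more than at the first. Of the 32-base words in its window, 80.0% occurred once in the genome. Of 18 annotated genes named sls-2, 3 had an IDR summit within 500 bp of the start and 6 had a pooled one. No share over all genes at that distance is given, so these counts are read no further.

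**Figure D2:**
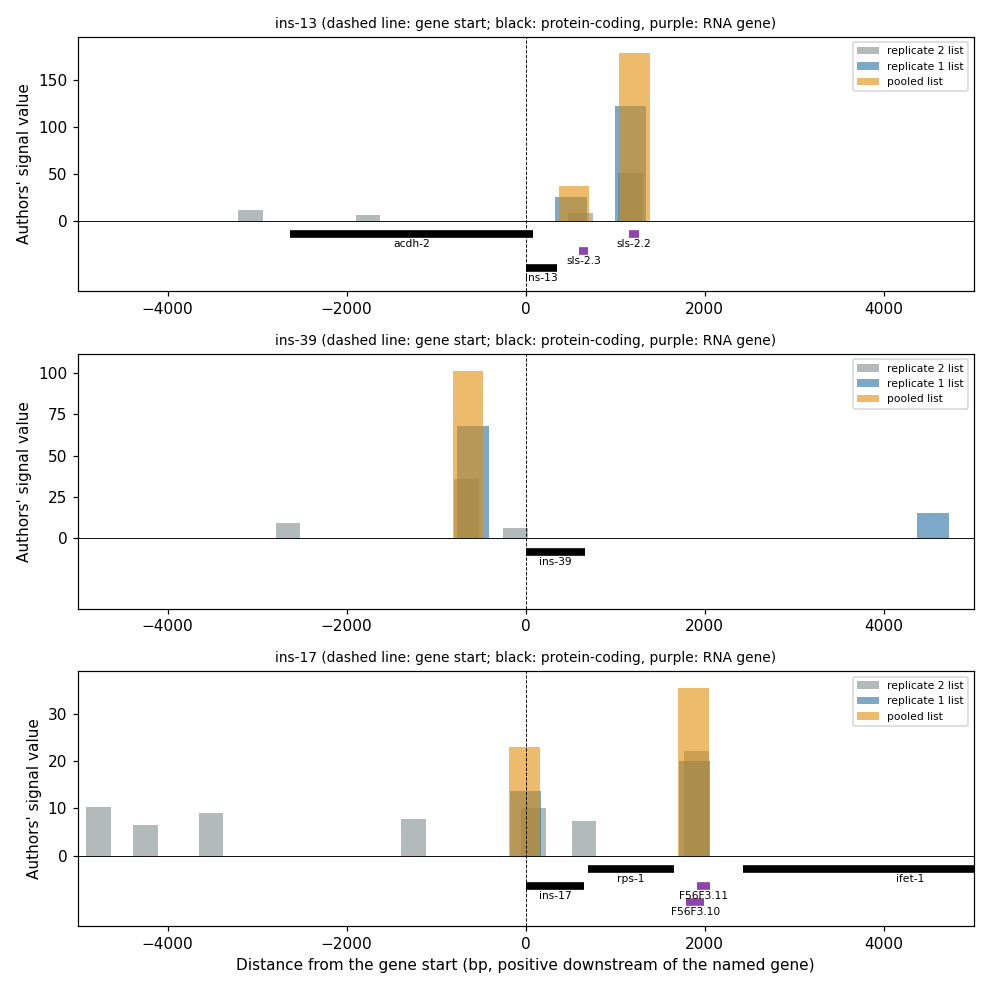
Regions and genes around ins-13, ins-39 and ins-17; the x axis is distance from the start of the named gene in bp, positive downstream, bars span each region at the height of its signal value in the authors' unit, and signal scales differ between lists. The strong regions lie over sls-2.2 at ins-13, upstream of ins-39 with no other gene, and between rps-1 and ifet-1 at ins-17.

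The members ins-17, ins-25, ins-29, ins-37, ins-34, ins-8, ins-7 and ins-32 had a pooled summit and no IDR peak. Their pooled signals ran from 22.8 to 35.5, against a median of 26.1 and a lowest value of 22.7 in that list, and none of these regions had a score of 1.3, which is a q of 0.05. A score of at least 1.3 was reached in the pooled list near 2 members, ins-13 and ins-39 (5.13%, against 3.39% of all genes), and in replicate 1 near the same 2 (against 2.19%). In replicate 2 it was reached near 6 members (15.4%, against 19.5%), which added ins-17, ins-32, ins-36 and ins-33. The replicate 2 region at ins-12, of rank 2305, was the nearest below that score. At ins-17, ins-32 and ins-36 the replicate 2 summit that reached it was nearer to another protein-coding start than to the member's. These starts were those of rps-1, F54D10.5 (summit 70 bp upstream) and Y53H1A.7 (summit 368 bp upstream). At ins-33 no protein-coding start was nearer, but the short RNA gene W09C5.15 began 1421 bp from the summit, against 3520 bp for ins-33.

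The strongest of these 8 was ins-17, which encodes a peptide reported to favour dauer entry. Its pooled region, III:4475528-4475867, had signal 35.5 and rank 515 of 4010. Replicate 1 had signal 20.1 and rank 1353 there, and replicate 2 had signal 22.2 and rank 201, which is within the 246 strongest regions of that list. The summit was 1874 bp downstream of the ins-17 start. It was closer to other starts, 220 bp upstream of rps-1, a small-subunit ribosomal protein gene, 548 bp upstream of ifet-1, a translational regulator gene, and 41 bp upstream of the short RNA gene F56F3.11. The window held GAGAGA 2 times, a word found in 49.6% of IDR windows and 20.4% of pooled ones.

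A second ins-17 region lay at the gene's own start. III:4477417-4477756 had its summit 15 bp upstream of that start, the shortest distance of any pooled summit to a member. It was weak in the pooled list, with signal 23.0 and rank 3721 of 4010. Replicate 1 ranked it 8089 (signal 13.7), below the middle of that list. Replicate 2 ranked it 7225 of 30000 (signal 10.1), above the middle of that list. The replicate regions overlapped by 225 bp.

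On chromosome I, ins-25 and ins-29 shared a pooled region, at I:14020558-14020897 with signal 31.3 and rank 845. Its summit was in an intron of ins-25, 367 bp downstream of that start and 1929 bp downstream of the ins-29 start. Replicate 1 had signal 22.2 and rank 837 there, but the strongest replicate 2 region near either gene had rank 8134 and did not overlap it. Some 32-base words of the window occurred up to 10 times in the genome, and 90.6% occurred once.

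The last 5 of these 8 members had pooled regions of lower rank. At ins-37 the summit of II:13834935-13835274 fell in an untranslated exon of the gene, 1002 bp downstream of its start, with signal 25.7 and rank 2216, and the start of the short RNA gene F08G2.12 was 151 bp away. At ins-34 the summit of IV:14104693-14105032 was 1711 bp upstream, with signal 23.1 and rank 3637, inside a piRNA gene, 21ur-6600. F52B11.5 was slightly closer to it than ins-34, at 1632 bp. The tandem genes ins-8 and ins-7, the latter an intestinal and neuronal activator of the receptor, shared a region of signal 22.8 and rank 3884. Its summit was 1577 and 3481 bp downstream of their starts. The ins-32 region, signal 22.8 and rank 3943, was 4972 bp upstream of that gene and 114 bp upstream of F54D10.5. It was the pooled summit nearest the inner edge of the window, and the nearest outside was 5161 bp from the ins-28 start, with signal 23.9. No replicate 1 region counted near ins-37, ins-8, ins-7 or ins-32 overlapped the pooled region there. Replicate 2 regions did, with rank 5523 at ins-37, 9788 at ins-8 and ins-7, and 720 at ins-32. At ins-34 the pooled region was overlapped by a replicate 1 region of rank 2213 and by none of replicate 2.

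**Figure D3:**
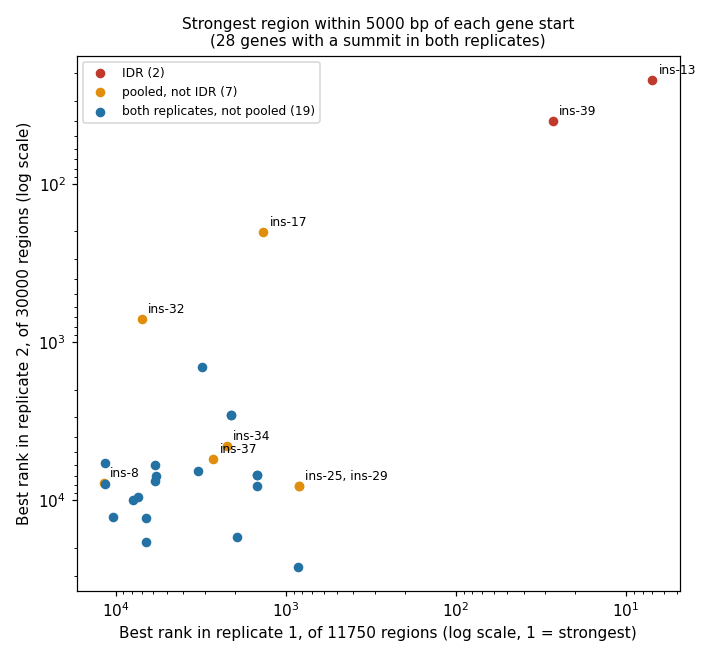
Rank of the strongest region within 5000 bp of the start in replicate 1 (x) and replicate 2 (y) for the 28 members with a summit in both, on log axes with rank 1 at the upper right; colours give the lists that hold a summit near the gene. Ranks of 40 or better in both replicates are those of ins-13 and ins-39, and ins-17 has ranks 1353 and 201, the latter in replicate 2.

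Of the 4 receptor activators named above, DAF-28, INS-4, INS-6 and INS-7, the gene of 1, ins-7, had a pooled summit and 0 had an IDR peak, a count too small to set against the 30.1% and 2.71% of all genes. Near daf-28, which acts in sensory neurons to prevent dauer arrest, the region of replicate 1 was 1033 bp downstream of the start with signal 14.9 and rank 5756, close to the middle of that list. The best of its 5 replicate 2 regions, 4643 bp upstream, had signal 10.1 and rank 7093. No region of either replicate near daf-28 overlapped one of the other. Near ins-6, replicate 1 had a region 869 bp downstream with signal 19.8 and rank 1485, which was also the only one within reach of ins-4 and ins-5. It was 14 bp from the start of the short RNA gene ZK84.14. Replicate 2 had rank 8123 (signal 9.73) as its best near ins-6, and rank 6947 (signal 10.2) near ins-3, ins-4 and ins-5. Near ins-3 replicate 1 had no region.

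The genes of the opposing peptides INS-1 and INS-18 had a region in each replicate and no pooled summit. At ins-1 replicate 1 had signal 13.7 and rank 7923 at 2066 bp upstream, and replicate 2 had signal 9.17 and rank 9948 at 3178 bp upstream. At ins-18 the ranks were 11536 in replicate 1 (signal 12.4) and 5812 in replicate 2 (signal 10.7). At ins-11, an intestinal gene that takes part in learned avoidance of pathogens, replicate 1 had no region. The stronger of its replicate 2 regions, 3093 bp upstream, had signal 6.47 and rank 24134 of 30000, and the other, 177 bp upstream, had signal 5.90 and rank 28665. At ins-35, which acts with ins-7 to suppress dauer arrest, the best ranks were 7385 in replicate 1 and 9591 in replicate 2.

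Among the 19 members with a summit of both replicates and no pooled summit, the best sum of rank percentiles belonged to ins-21 and ins-22. They share a region of rank 2088 in replicate 1 (signal 18.5, 577 bp upstream of ins-21) and another of rank 2893 in replicate 2 (signal 12.6, 267 bp downstream of ins-21), which do not overlap. At ins-33 the ranks were 3110 (signal 17.1) and 1441 (signal 14.5), on opposite sides of the gene. After it came ins-4 and ins-5. The remaining members of this set were ins-6, ins-28, ins-27, ins-24, ins-26, ins-19, ins-31, ins-16, ins-10, ins-35, ins-9, ins-1, ins-18 and daf-28. At ins-16 the replicates were far apart, with rank 846 in replicate 1 (signal 22.2, 173 bp downstream of the start and inside the gene) and rank 26311 in replicate 2 (signal 6.18). Regions in replicate 2 alone were listed for 10 members, ins-36, ins-30, ins-12, ins-11, ins-2, ins-3, ins-20, ins-15, ins-14 and ins-23. The strongest of them was at ins-36, with rank 1067 and signal 15.4 at 1703 bp downstream, and the weakest best rank was shared by ins-14 and ins-15, at 28673. The ins-36 summit was nearer to the start of Y53H1A.7, 368 bp upstream of it.

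Regions of the replicates that overlap each other were found near 11 members (28.2%, against 29.8% of all genes). They were ins-13, ins-39, ins-17, ins-37, ins-8, ins-28, ins-27, ins-24, ins-19, ins-31 and ins-10. At ins-37 the overlapping regions had summits 1547 and 1661 bp downstream of the start, and at ins-8 3128 and 3088 bp downstream. Neither pair overlapped the pooled region described for that gene. Over the 28 members with both, the best ranks in the replicates had a Spearman rho of 0.264, and 0.0808 over the 26 without ins-13 and ins-39. Members of a tandem group share regions, so these points are not independent. The best rank percentile had a median of 24.6 in replicate 1 and 25.3 in replicate 2, against 37.4 and 22.7 over all genes with a summit.

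Neighbouring members often shared a region. The 12 pooled pairs of member and summit came from 10 regions, the 40 pairs of replicate 1 from 31 and the 134 pairs of replicate 2 from 95, with up to 4 members near the same region. Members had a median of 3 replicate 2 summits, equal to that of all genes, with 7 at ins-7, ins-8 and ins-17, and 1 at ins-2, ins-14 and ins-15. Of the 22 members with another member close by, 0 had an IDR peak and 4 had a pooled summit. Of the 17 without, 2 had an IDR peak and 6 a pooled summit. All genes were not split by such neighbours, so these counts have no background of their own and are read no further. Upstream and downstream pairs numbered 4 and 8 in the pooled list, 15 and 25 in replicate 1, and 69 and 65 in replicate 2.

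A pooled summit near a member was often nearer to something else. The member was the nearest protein-coding start at 7 of the 10 regions, and 6 members were nearest to at least 1 pooled summit (15.4% of the family, against 14.6% of all genes). A short RNA gene, at most 200 bp long, began closer than the member at 5 of the 10 regions, which were both regions at ins-13, the rps-1 region at ins-17, and those at ins-37 and ins-34. Counted against the nearest protein-coding start of any gene it was also 5 of 10, against 26.6% of the 3432 pooled summits with such a start within 5000 bp. By feature, 5 of the 10 summits were intergenic, 2 in short RNA genes, 1 in an intron, 1 in an untranslated exon, and 1 in F56F3.10, an RNA gene of 207 bp. The GC content of the 10 windows had a median of 41.0% (27.4 to 46.8), against 37.3% over the pooled list and 47.3% over the IDR list. The words CAGGTA and CAGGTG, the type of site that ZEB zinc fingers bind, were in 0 of the 10 windows, and in 4.16% and 4.71% of pooled windows, so 10 windows are too few to show a difference. CGTCTC was in 2, both at ins-13, against 12.2% of pooled and 42.3% of IDR windows, and ACGCAG was in 1, at the weaker ins-13 region, against 10.5% and 33.7%.

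**Figure D4:**
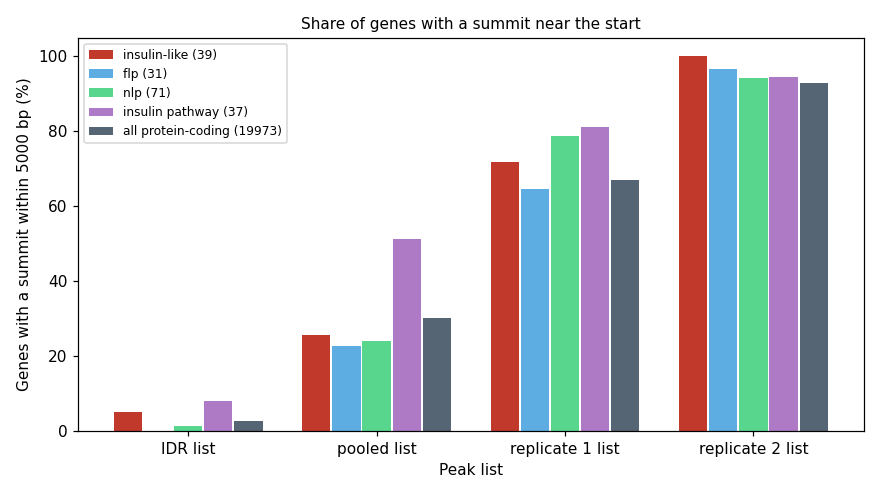
Percentage of genes with a summit within 5000 bp of the start in each list, on the y axis, for the insulin-like genes, the flp and nlp neuropeptide genes, the insulin pathway list and all protein-coding genes; numbers in the key are genes. In the pooled list the 3 peptide families are between 22.6% and 25.6%, below the 30.1% of all genes, and the pathway list is at 51.4%.

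The other large peptide families are given side by side by the same rule. Of 31 flp genes, which encode FMRFamide-like peptides, 0 had an IDR peak, 7 (22.6%) a pooled summit and 20 (64.5%) a replicate 1 summit. Of 71 nlp genes, which encode other neuropeptides, 1 had an IDR peak, 17 (23.9%) a pooled summit and 56 (78.9%) a replicate 1 summit. The best pooled rank percentile was 12.9 among flp and 5.71 among nlp genes, against 0.274 at ins-13, inside sls-2.2, and 0.798 at ins-39. These are single extreme values. The median best pooled percentile was 55.1 for flp, 48.8 for nlp and 38.2 for insulin-like genes, against 43.7 for all genes. In replicate 1 the medians were 34.2, 34.4 and 24.6, against 37.4. In replicate 2 they were 23.5, 16.5 and 25.3, against 22.7. A region shared by neighbouring insulin-like genes enters these medians once for each gene, as at ins-4, ins-5 and ins-6 in replicate 1. Overlapping regions of both replicates were found near 12.9% of flp and 32.4% of nlp genes, against the 28.2% of insulin-like genes. The nearest protein-coding start of a pooled summit was that of 2 flp genes (6.45%) and 11 nlp genes (15.5%), against 15.4% of insulin-like genes. Whether the families differ was not tested.

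A list of 37 genes was chosen by function. It held genes that make, release, receive and relay insulin-like peptides, and output genes of dauer and lifespan control. Of these 37, 19 had a pooled summit (51.4%, against 30.1% of all genes) and 3 an IDR peak (8.11%, against 2.71%). Replicate 1 had a summit near 30 of them (81.1%, against 66.9%) and replicate 2 near 35 (94.6%, against 92.8%). Only the 3 with an IDR peak, ftt-2, egl-3 and daf-12, had a pooled region with a score of at least 1.3. The next highest pooled score was 1.21, at kpc-1. Whether the list differs from all genes was not tested. Of 20 genes of the receptor and its signalling cascade, 10 had a pooled summit. The strongest was ftt-2, a 14-3-3 protein gene, with an IDR peak of signal 92.8 and rank 38 at 689 bp upstream. It was followed by akt-2 (38.3) and akt-1 (35.1), kinase genes, pptr-1 (34.5), a phosphatase subunit gene, and daf-16 (33.3). The other 5 were pqm-1 (31.4), pdk-1 (26.4), sgk-1 (rank 3058), age-1, the phosphoinositide kinase gene (23.9), and the receptor gene daf-2 (22.7), where the summit was 381 bp upstream with rank 3946 of 4010.

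Of 10 processing and release genes, 6 had a pooled summit. These were egl-3, a proprotein convertase gene with 2 IDR peaks, the stronger of signal 52.0 at 4609 bp upstream, kpc-1 and aex-5, also convertase genes (41.3 and 28.6), unc-31, which acts in dense core vesicle release (40.5), ida-1, a vesicle membrane protein gene (34.9), and egl-21, a carboxypeptidase gene (28.9). Of 7 output genes, 3 did, namely daf-12, a nuclear receptor gene with an IDR peak of signal 49.0 at 1723 bp downstream, dao-3 (26.6) and sod-3, a superoxide dismutase gene (23.8). The values in parentheses are pooled signals unless named as ranks. Gene neighbourhoods and lengths were not matched between these genes and the insulin-like genes. Nearest starts and overlap with replicate regions are not given for the pathway genes. A pooled summit counted for one of them may thus lie closer to another gene or lack an overlapping region in a replicate.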

How the data were processed

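Whole L4 worms were profiled by ChIP-seq in 2 biological replicates. Per the labels, the fragment size range was 150 to 350 bp. The authors deposited peak lists in narrowPeak form with a signal value per region and a score, the −log10 of a q-value, as deposited by the authors. Per the deposited text listings, each replicate list came from that replicate's alignments, the pooled list from both, and the IDR list from all 3. Aligner, caller, tool versions and IDR threshold: not given in the sources used here. Lists in the ce10 build were not used here, since no coordinates were converted.

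Summits (start plus offset, written 1-based) were placed on WBcel235 with Ensembl 115 annotation. Short RNA genes were tRNA, snoRNA, snRNA, miRNA, rRNA, piRNA and ncRNA genes of at most 200 bp. Words and 32-base uniqueness were read within 100 bp of a summit. Every member is named. Signal and rank, though not in every list, are given for members with an IDR or pooled summit. They are also given for the 5 with the best summed rank percentile of the rest and for well-studied members. Genes outside the family are named as neighbours or from the pathway list. The members, lists and rules were chosen with earlier results of these data known, and no test was made. The counting was tested on simulated summits. Alternatives changed the window, the reference point, the list and the replicates. Python 3.11.15, numpy 2.4.6 and pandas 2.3.3 were used.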

Additional observations from a re-analysis of the deposited data

How the results depend on the processing

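No paired analysis was possible because the series holds a single group. Of 50 alternative counts, 24 were within 1.5 times the main count. With a window of 1000 bp, members with a summit numbered 1 in the IDR list, 4 in the pooled list, 8 in replicate 1, 25 in replicate 2 and 5 in both, which follows from the smaller window. At 2000 bp they were 15 in replicate 1 and 14 in both, and at 10000 bp 18 in the pooled list. Upstream of the start alone they were 1, 4, 13 and 12 (IDR, pooled, replicate 1, both). By overlap with the gene body they were 0, 3, 6, 16 and 2 in the same order with replicate 2 before both, so neither IDR peak touches its gene. With a score of at least 1.3 the pooled count was 2. Among the 246 strongest regions there were 2 in replicate 1 and 3 in replicate 2, where ins-17 joined. Among the 4010 strongest there were 16, 10, and 6 in both, and with overlapping regions required there were 11. No IDR or pooled list was remade without a replicate. With 1 replicate left out, the other's strongest regions stood in for those lists and its whole list for both, so the ranges of 2 to 3 (IDR), 10 to 16 (pooled; 16 without replicate 2) and 28 to 39 (both) restate the counts of single replicates and are no separate check. With tRNA, snoRNA, snRNA, miRNA and rRNA genes only, a short RNA start was closer at 2 pooled regions, both at ins-13. Depth is unknown and limits every count in a way that cannot be given here.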
